A study of Homo sapiens with 2 samples.

Results

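The 10 genes described here, FOS, FOSL2, JUN, JUNB, JUND, EGR1, ATF3, DUSP1, IER2 and IER3, are immediate early and stress response genes. They were chosen by gene name, and all 10 were found among the 18781 genes of the deposited table. The RNA came from wild-type T47D cells, a luminal breast cancer line grown in DMEM with fetal bovine serum and antibiotics, with no stimulus named. In the RIP assay (RNA immunoprecipitation), lysate was incubated with protein A beads that carried either an antibody against IMP1, an RNA-binding protein of the cytoplasm, or normal IgG, and RNA that stayed on the washed beads was sequenced. There was 1 library from the IMP1 precipitate and 1 from the IgG precipitate, so no difference given below has a replicate check and no p-value is given.

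Immediate early genes are transcribed within minutes of a growth factor, serum or stress signal, without new protein synthesis, through transcription factors that MAP kinases phosphorylate. Their mRNAs are short-lived, and most of the proteins they encode are transcription factors or feedback inhibitors. JUN and FOS proteins pair through leucine zippers to form AP-1, which binds promoters of genes for growth, invasion and stress responses, while EGR1 is a zinc finger factor and ATF3 a stress-induced bZIP factor. DUSP1 removes phosphate from MAP kinases and so ends the signal that induces it.

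Values are FPKM, fragments per length of transcript and per depth of library, as the authors deposited them, and a value at or under 1e-05 FPKM is called listed at 0. Ratios compare the IMP1 antibody with IgG as the log2 of their FPKM after 0.1 was added to each, which makes differences of low genes look smaller than they are. FPKM summed to 353885 with the IMP1 antibody and to 1298363 with IgG, and the read depth of either library is unknown. The IMP1 library had 17233 genes above 0 and the IgG library 11283. Over all genes the log2 ratio had a median of 0.40, and for the 10047 genes above 0 in both libraries it was -0.77.

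Markers of other cell types moved with the IgG library. All 13 luminal breast markers were above 0 with the IMP1 antibody and 11 with IgG, where TFF1 and TFF3 were listed at 0, and their summed FPKM was 955 with the IMP1 antibody and 355 with IgG. KRT19, a luminal keratin, had 371 FPKM and 78.8 FPKM, and EPCAM, an epithelial adhesion protein, 48.4 FPKM and 55.1 FPKM. Of 15 mesenchymal markers, 13 were at least 2-fold lower in the IMP1 library, against 29.9% of all genes. Their summed FPKM was 5.86 in the IMP1 library and 243 with IgG. DCN, LUM, SPARC, COL1A2, ZEB2 and PDGFRB were listed at 0 in the IMP1 library, and FAP was listed at 0 with IgG. Of 5 measured blood cell markers, CD74 and HLA-DRA made up most of the sum with IgG, at 305 and 17.4 FPKM, and HLA-DRA was listed at 0 in the IMP1 library, where the summed FPKM was 7.54 against 327. Immediate early genes are expressed in many cell types, and the part of other cells in their values with IgG was not tested. Of 16 broadly expressed genes, 5 were at least 2-fold lower and 4 at least 2-fold higher in the IMP1 library. Over all genes these shares were 29.9% and 39.9%. Both libraries are precipitates, so RNA held on the beads and RNA present in the lysate cannot be told apart.

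All 10 genes were above 0 in the IMP1 library, while FOS, JUNB, EGR1 and IER2 were listed at 0 in the IgG library. The other 6 genes were above 0 in both, and each had the lower value in the IMP1 library as deposited, a direction that turns for JUN and IER3 when the IMP1 values are rescaled to the same FPKM sum. Of these 6, all but IER3 were at least 2-fold lower in the IMP1 library and 0 were at least 2-fold higher. Over all genes, 29.9% were at least 2-fold lower and 39.9% at least 2-fold higher, and among genes above 0 in both libraries these shares were 44.6% and 16.9%. FOSL2 was just under 1 FPKM in 1 library, and of the genes that reached 1 FPKM in both libraries, where 44.0% were at least 2-fold lower and 11.5% higher, 4 of the 5 immediate early genes were lower. The median log2 ratio of the 6 genes was -2.14, against -0.77 for all genes above 0 in both. With the genes listed at 0 included, 5 of the 10 were at least 2-fold lower and 4 at least 2-fold higher, with a median of -1.03. For those 4 the ratio comes from the pseudocount, so no fold is given for them.

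**Figure D1:**
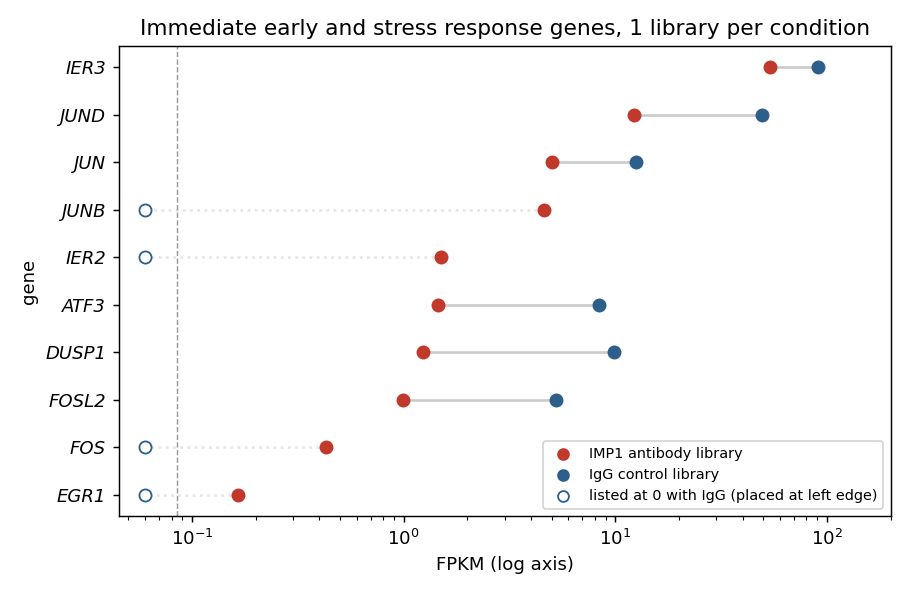
FPKM on a log axis of the 10 immediate early and stress response genes in the IMP1 antibody library (red) and the IgG control library (blue), with 1 library each. Open circles at the left edge mark the 4 genes listed at 0 with IgG, and the other 6 genes all lie further right with IgG than with the IMP1 antibody, as JUN and IER3 do not after rescaling to the same sum.

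Promoter elements, apart from the letters TATAAA, are shown because they are the known entry points of the signals that induce such genes. RefSeq promoter sequences of build GRCh38.p14, from 250 bases before to 50 bases after the transcription start, matched 9 of the 10 genes, all but IER3. The search covered both strands, except for TATAAA, for the CArG box bound by serum response factor, for the cyclic AMP response element (CRE) TGACGTCA, for its core TGACG, which a full CRE also contains, and for the AP-1 site TGACTCA. The CRE core was in the promoters of 8 of the 9 genes, against 24.6% of all 35116 promoters. A full CRE was in 2 of them, DUSP1 and JUND, against 1.85% of all promoters. The AP-1 site was in 1, FOSL2, where it lies after the start, against 4.95%. The CArG box was in 1, EGR1, with 2 copies in the sequence searched, against 1.29%. The letters TATAAA, searched on the strand of the gene alone, were in 4, ATF3, DUSP1, FOS and JUNB, against 7.33%. They began 230 bases upstream of the start in ATF3, against 30 in DUSP1, 33 in FOS and 31 in JUNB. The windows below run 5′ to 3′ on the strand of the gene, with the matched letters in capitals.
EGR1, CArG box from 105 bases upstream of the start (chr5:138465364-138465393, plus strand): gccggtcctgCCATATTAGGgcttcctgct
EGR1, CArG box from 83 bases upstream (chr5:138465386-138465415, plus strand): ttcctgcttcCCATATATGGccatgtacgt
DUSP1, CRE from 125 bases upstream (chr5:172771303-172771330, minus strand): gcagggcgggTGACGTCAccgccccgtc
JUND, CRE from 200 bases upstream (chr19:18281805-18281832, minus strand): gccgcccccaTGACGTCAacccacaagg
FOS, CRE core from 64 bases upstream (chr14:75278754-75278778, plus strand): gttgagcccgTGACGtttacactca
JUNB, CRE core from 137 bases upstream (chr19:12791339-12791363, plus strand): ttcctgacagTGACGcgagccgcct
Genes with a CRE or its core were found on both sides of the split between the genes listed at 0 with IgG (FOS, JUNB, EGR1 and IER2) and the genes above 0 (JUN, JUND, FOSL2 and DUSP1). The sequence searched for ATF3 held neither, which leaves any other start of ATF3 unsearched. Sites outside these promoter sequences, such as those further upstream or at another start, were not searched. A gene without a match may hold the element elsewhere. A match of letters is not a measured binding site.

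The deposited loci, in hg19, of 4 genes not placed later are chromosome 1 from 59246465 to 59249785 for JUN and from 212738676 to 212794119 for ATF3, chromosome 2 from 28607276 to 28640179 for FOSL2, and chromosome 5 from 172185229 to 172204777 for DUSP1.

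The JUN family provides the AP-1 subunits that can pair with each other or with a FOS protein. JUND, the family member known for steady expression in resting cells, had 12.2 FPKM with the IMP1 antibody and 49.3 FPKM with IgG. JUN, the transactivating member that is itself an AP-1 target, had 5.04 FPKM and 12.5 FPKM. JUNB, which often opposes JUN in growth control, had 4.62 FPKM in the IMP1 library and was listed at 0 with IgG. The log2 ratio was -2.00 for JUND and -1.29 for JUN, or 4.03 and 2.48 times as many FPKM with IgG as with the IMP1 antibody. JUND was the highest of the family in both libraries, followed by JUN.

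The make-up of the family within a library does not depend on how the libraries are scaled. Of the summed FPKM of the 3 JUN genes, JUND held 55.9% with the IMP1 antibody and 79.8% with IgG. JUN held a close share in both, 23.0% with the IMP1 antibody and 20.2% with IgG. The share of JUNB was 21.1% in the IMP1 library. JUND thus held the smaller share where JUNB was above 0. It exceeded JUN 2.43 times with the IMP1 antibody and 3.95 times with IgG.

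The FOS genes described here were low in both precipitates. FOS, the classic serum-induced member, had 0.431 FPKM in the IMP1 library and was listed at 0 with IgG. FOSL2 encodes FRA2, a member that appears later and persists longer after a stimulus. It had 0.996 FPKM with the IMP1 antibody and 5.24 FPKM with IgG, and the log2 ratio was -2.28. Among the other FOS genes, FOSB had 0.0293 FPKM in the IMP1 library and was listed at 0 with IgG. FOS, FOSB and FOSL2 summed to 1.46 FPKM in the IMP1 library, against 21.9 FPKM for the JUN family. FOSL1, a further member of the FOS family, was not part of the sum. With IgG the sums were 5.24 FPKM and 61.8 FPKM, so JUN family mRNA exceeded the mRNA of FOS, FOSB and FOSL2 in both precipitates.

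ATF3, a bZIP factor induced by stress signals, had 1.46 FPKM with the IMP1 antibody and 8.40 FPKM with IgG, 5.76 times as much, with a log2 ratio of -2.45. EGR1, a zinc finger transcription factor induced by serum and growth factors, was the lowest of the 10 genes in the IMP1 library at 0.165 FPKM and was listed at 0 with IgG. DUSP1, the MAP kinase phosphatase, had 1.24 FPKM with the IMP1 antibody and 9.86 FPKM with IgG. This was the largest difference among the 6 genes above 0 in both, 7.98 times as much with IgG, with a log2 ratio of -2.90. Of all genes above 0 in both libraries, 10.9% had a lower log2 ratio than DUSP1, 16.6% a lower ratio than ATF3, 18.95% than FOSL2 and 23.5% than JUND.

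The IER genes are immediate early genes outside these factor families. IER3, an inhibitor of apoptosis that growth factors and NF-kB induce, was the highest of the 10 genes in both precipitates, with 53.7 FPKM with the IMP1 antibody and 90.8 FPKM with IgG. It alone made up 66.0% of the summed FPKM of the 10 genes with the IMP1 antibody and 51.6% with IgG. Its log2 ratio of -0.76 was close to the median of all genes above 0 in both libraries, and 50.2% of those genes had a lower ratio. IER2, a nuclear protein of the early response, had 1.498 FPKM in the IMP1 library and was listed at 0 with IgG.

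In the IMP1 library the order of the levels was IER3, JUND, JUN, JUNB, IER2, ATF3, DUSP1, FOSL2, FOS and EGR1. With IgG it was IER3, JUND, JUN, DUSP1, ATF3 and FOSL2, followed by the 4 genes listed at 0. The 3 highest genes were thus in the same order in both libraries, while DUSP1 stood above ATF3 with IgG and below it with the IMP1 antibody. IER2 and ATF3 differed little in the IMP1 library, at 1.498 and 1.458 FPKM, and DUSP1 followed at 1.24 FPKM. There is no spread between replicates against which to read these steps.

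**Figure D2:**
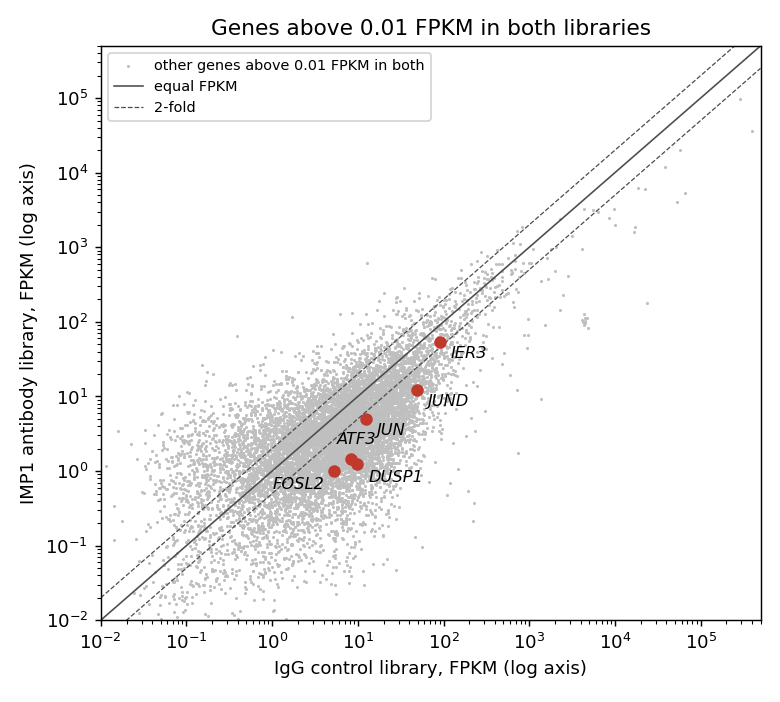
FPKM in the IgG control library (x axis) against the IMP1 antibody library (y axis), both log axes, for genes above 0.01 FPKM in both, with 1 library per condition. As deposited, before any rescaling, which turns JUN and IER3, the 6 immediate early genes in red lie under the line of equal FPKM, and all but IER3 lie under the lower 2-fold line, where many other genes of their level also lie.

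Other genes of the same level put these values in context. Of the 2133 genes whose IgG value was within 1.5-fold of that of DUSP1, 59.5% were at least 2-fold lower in the IMP1 library. The share was 57.5% near ATF3, 51.1% near FOSL2, 62.5% near JUN, 69.2% near JUND and 62.1% near IER3. A value at least 2-fold lower was thus the more common outcome at the level of each of these genes. For the genes listed at 0 with IgG, the share of other genes also listed at 0 depended on the level. Near the IMP1 value of EGR1 it was 76.7% of 1606 genes, and near that of FOS 63.3% of 2207 genes. It was 35.9% of 2993 genes near IER2 and 18.96% of 2611 genes near JUNB. Of the 4 genes, JUNB was thus the one whose zero was least common at its level.

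JUNB and IER2 lie near each other on chromosome 19, and genes between them shared their pattern. In hg19 coordinates the deposited locus of JUNB runs from 12873817 to 12985765, a merged locus of 111949 bp that it shares with 6 other genes. The locus of IER2, from 13261229 to 13265722, is shared with CTC-250I14.6, a clone-named transcript with 5.49 FPKM in the IMP1 library and a zero with IgG. The table gives no strand, and reads from transcripts that overlap in such a locus may not be told apart. From the start of the JUNB locus to the end of the IER2 locus, 21 genes had at least 1 FPKM in the IMP1 library, and 12 of them, 57.1%, were listed at 0 with IgG. Without JUNB and IER2 it was 10 of 19 genes, or 52.6%. The share was 32.1% of 685 genes over chromosome 19 and 21.4% of 9822 genes over all chromosomes. This stretch was chosen after its values were seen.

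Directly before IER2, at a gap of 32 bp, STX10, a syntaxin of membrane fusion, had 5.97 FPKM in the IMP1 library and was listed at 0 with IgG. Directly after the JUNB locus, at a gap of 260 bp, DNASE2, a lysosomal nuclease, had 17.9 FPKM and 0.514 FPKM. RNASEH2A, a subunit of ribonuclease H within the JUNB locus, had 13.5 FPKM in the IMP1 library and a zero with IgG. FARSA, a subunit of phenylalanyl-tRNA synthetase, had 14.2 FPKM and 0.164 FPKM. Other genes of the stretch were well above 0 with IgG, such as CALR, the chaperone calreticulin, with 275 FPKM and 118 FPKM, and PRDX2, a peroxiredoxin, with 65.7 FPKM and 24.8 FPKM. The zeros with IgG were therefore frequent but not general along this stretch.

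**Figure D3:**
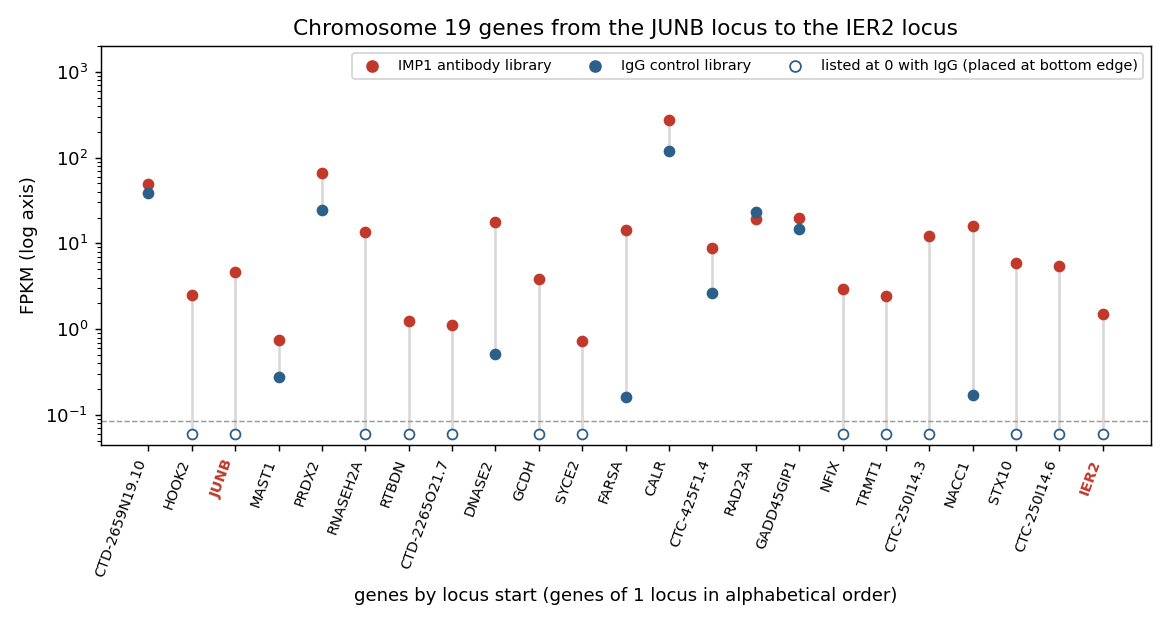
FPKM on a log axis in the IMP1 antibody library (red) and the IgG control library (blue) for the genes from the JUNB locus to the IER2 locus on chromosome 19, ordered by locus start. Open circles at the bottom edge mark genes listed at 0 with IgG, among them JUNB, IER2, STX10 and RNASEH2A, while CALR and PRDX2 were above 0 in both libraries.

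Neighbours of the other 8 genes varied, some with the pattern of the gene beside them and some without it. A neighbour here is the nearest gene with at least 1 FPKM in a library, so lower genes may lie between. JUND, also on chromosome 19 from 18390563 to 18392432, lies 24608 bp from LSM4, a spliceosome subunit. LSM4 had 17.0 FPKM with the IMP1 antibody and 46.9 FPKM with IgG, while MPV17L2 on the other side of JUND had 3.09 FPKM and a zero. FOS, on chromosome 14 from 75745477 to 75748933, is followed at a gap of 141453 bp by JDP2, a repressor of AP-1, with 4.84 FPKM and 4.92 FPKM. TMED10, a cargo receptor before FOS, had 196 FPKM and 189.5 FPKM, so neither JDP2 nor TMED10 shared the zero of FOS. Genes under 1 FPKM in both libraries, as FOS was, could not be chosen as neighbours. Whether lower genes beside FOS shared its zero was therefore not tested. EGR1, on chromosome 5 from 137801179 to 137805004, is followed by ETF1, a translation release factor with 13.5 FPKM and 29.6 FPKM, while CDC25C before it, a mitotic phosphatase, had 1.41 FPKM and a zero like EGR1. After JUN, at a gap of 512525 bp, FGGY had 2.21 FPKM and a zero. Before ATF3, NENF had 13.5 FPKM and a zero, and after it NSL1, a kinetochore subunit, had 5.09 FPKM and 0.789 FPKM. Beside FOSL2, PPP1CB, a catalytic subunit of protein phosphatase 1 at a gap of 334327 bp, had 11.9 FPKM and 18.1 FPKM. On the other side of FOSL2, MRPL33 had 8.57 FPKM and 7.70 FPKM, and BRE had 1.96 FPKM and a zero. Beside DUSP1, ERGIC1 had 19.3 FPKM and 8.35 FPKM, and NEURL1B had 1.68 FPKM and a zero. IER3, on chromosome 6 from 30710706 to 30712331, lies 196 bp from FLOT1, a membrane raft protein with 21.8 FPKM with the IMP1 antibody and 15.5 FPKM with IgG.

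In a wider list of immediate early genes, the shares of lower values were near those of all genes. Of 35 genes listed, 32 were measured, 8 of them at 0 with IgG and none at 0 in the IMP1 library. Of the 32, 11 were at least 2-fold lower and 6 at least 2-fold higher, against 29.9% and 39.9% of all genes. Each of those 6 was listed at 0 with IgG. Among the 24 above 0 in both, 11 were at least 2-fold lower in the IMP1 library and 0 at least 2-fold higher, against 44.6% and 16.9% of all genes above 0 in both. Their median log2 ratio was -0.97, near the -0.77 of all genes above 0 in both, and with the IMP1 values rescaled to the same FPKM sum it was 0.89. The 8 genes listed at 0 with IgG, which include FOSB, EGR3, NR4A1 and NR4A2, were at or under 0.611 FPKM in the IMP1 library.

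The genes of that list with at least 10 FPKM in a library include a kinase, a secreted protein, an RNA-binding protein and a transcription factor. PLK2, a polo-like kinase, had 14.5 FPKM with the IMP1 antibody and 59.1 FPKM with IgG, and the log2 ratio was -2.02. KLF6, a zinc finger factor, had 3.30 FPKM and 28.2 FPKM, and the log2 ratio was -3.06, the lowest among the genes of the list with at least 1 FPKM in both libraries. BTG1, an antiproliferative gene, had 14.5 FPKM and 36.7 FPKM. CYR61, a secreted matrix protein, had 12.7 FPKM and 33.7 FPKM. ZFP36L1, which binds AU-rich elements and speeds the decay of early response mRNAs, had 17.3 FPKM and 33.8 FPKM, and MCL1, a survival factor, had 8.45 FPKM and 16.0 FPKM. RHOB, a small GTPase, had the higher value in the IMP1 library, 14.0 FPKM against 9.58 FPKM. After rescaling to the same sum PLK2 and KLF6 remained lower, with log2 ratios of -0.15 and -1.21, whereas BTG1 and CYR61 turned to 0.53 and 0.46. All of these genes were below IER3 in both libraries.

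Other MAP kinase phosphatases lay on both sides of equal FPKM. Of 9 measured beside DUSP1, 3 were at least 2-fold lower in the IMP1 library and 5 at least 2-fold higher, of which 2 were listed at 0 with IgG, where 29.9% of all genes were lower and 39.9% higher. After rescaling to the same sum it was 1 lower and 6 higher, against 2433 and 11962 of all 18781 genes. DUSP16, which acts on JNK and p38, had 2.43 FPKM with the IMP1 antibody and 11.8 FPKM with IgG, and DUSP14 had 7.18 FPKM and 25.8 FPKM. DUSP4, a nuclear phosphatase that ERK signalling induces, had 6.19 FPKM and 1.79 FPKM, and the log2 ratio was 1.73. Of genes chosen after their values were seen, DUSP10, which like DUSP16 acts on JNK and p38, had 0.665 FPKM and 5.62 FPKM. DUSP5 and DUSP6, both ERK phosphatases, had 2.22 FPKM and 2.10 FPKM with the IMP1 antibody and zeros with IgG. DUSP1, DUSP10 and DUSP16 stayed lower and DUSP4 higher under every rescaling of the IMP1 values, while DUSP14 moved to a log2 ratio of 0.03 after rescaling to the same sum.

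Kinases and factors that induce these genes were found on both sides of equal FPKM as deposited. Of 23 measured, 7 were at least 2-fold lower in the IMP1 library and 5 at least 2-fold higher. Over all genes these shares were 29.9% and 39.9%. After rescaling to the same sum 0 of the 23 were lower and 15 higher, against 2433 and 11962 of all 18781 genes. As deposited, the median of the 21 above 0 in both was -0.23, or 1.63 after rescaling to the same sum. MAP2K2, a kinase that activates ERK, had 13.5 FPKM with the IMP1 antibody and 39.7 FPKM with IgG, and ELK1, a factor that ERK phosphorylates at serum response elements, had 7.45 FPKM and 15.6 FPKM. MAPK14, which encodes p38, had 7.10 FPKM and 1.48 FPKM, while MAP2K6, a kinase that activates p38, had 1.12 FPKM and 4.74 FPKM. MAPK3, which encodes ERK1 and was chosen after its values were seen, had 14.2 FPKM and 0.343 FPKM.

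Of the further bZIP factors that reached 1 FPKM in both libraries, DDIT3 had the lowest ratio. DDIT3, the CHOP factor of the integrated stress response, had 3.64 FPKM with the IMP1 antibody and 97.2 FPKM with IgG, and the log2 ratio was -4.70. NUPR1, a stress-induced chromatin protein, had 31.95 FPKM and 120.1 FPKM, and XBP1, a factor of the unfolded protein response and of luminal cells, had 345 FPKM and 226 FPKM. Of 16 integrated stress response genes 8 were at least 2-fold lower and 0 at least 2-fold higher, and of 20 other bZIP factors 9 were lower and 2 higher. Of 15 heat shock genes 7 were lower and 2 higher, with DNAJB1, an HSP40 co-chaperone, at 12.7 FPKM and 5.23 FPKM. The most abundant, HSPB1 and HSPA8, had 349 and 332 FPKM in the IMP1 library and 250.3 and 248 FPKM with IgG. Over all genes, 29.9% were lower and 39.9% higher, and among genes above 0 in both libraries 44.6% and 16.9%. Of the list genes above 0 in both, 8 of 15 integrated stress response genes were lower and 0 higher. It was 9 lower and 1 higher of 19 bZIP factors, and 7 lower and 2 higher of 15 heat shock genes. The shares of lower bZIP factors and heat shock genes were thus near that of all genes above 0 in both. After rescaling to the same sum, 1 integrated stress response gene was lower and 6 higher, and 3 bZIP factors were lower and 10 higher. For heat shock genes it was 2 lower and 7 higher, and of all 18781 genes 2433 were lower and 11962 higher. Medians of genes above 0 in both were -1.29, -0.89 and -0.92 for these lists, and 0.58, 0.97 and 0.96 after rescaling to the same sum.

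Of 17 NF-kB response genes listed, 12 were measured. Of these, 11 were at least 2-fold lower in the IMP1 library, against 29.9% of all genes and 44.6% of genes above 0 in both. RELB, the other gene, had 0.754 FPKM in the IMP1 library and a zero with IgG. After rescaling to the same sum 5 of the 12 were lower and 1 higher, against 2433 and 11962 of all 18781 genes. These NF-kB response genes share inducers with IER3. Their median log2 ratio was -2.64 over the 11 genes above 0 in both, and -0.78 after rescaling to the same sum. The 6 immediate early genes had a median of -0.32 under that rescaling. LCN2, a secreted iron carrier, had 1.77 FPKM with the IMP1 antibody and 746 FPKM with IgG, and BIRC3, an inhibitor of apoptosis, 1.08 FPKM and 147 FPKM. NFKB2, a subunit of the factor, was closer, at 3.17 FPKM and 7.14 FPKM.

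**Figure D4:**
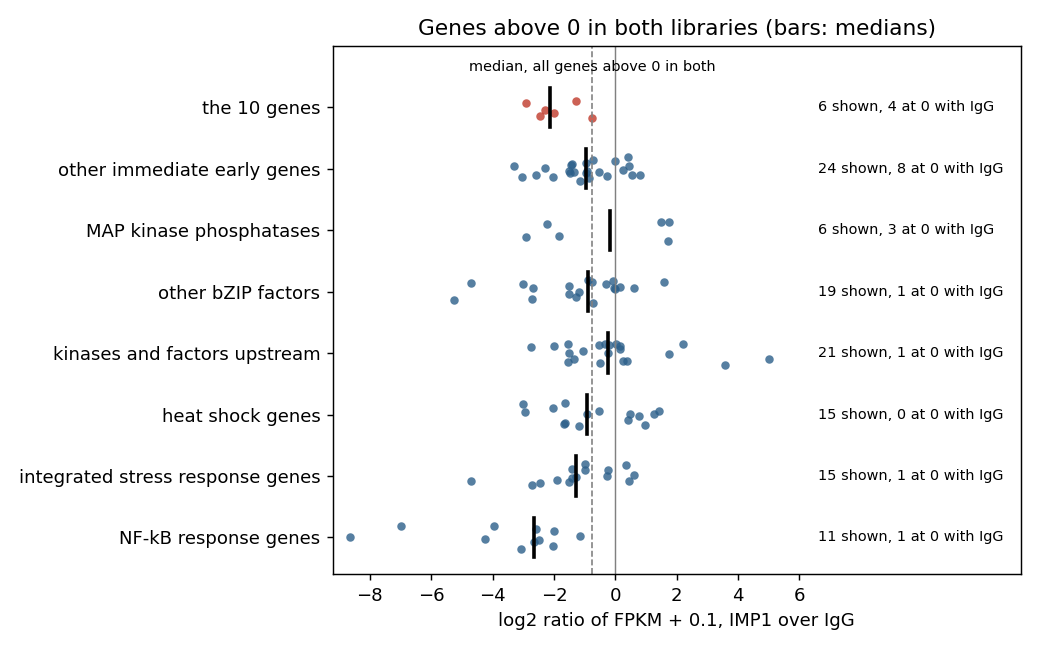
Log2 ratio of FPKM + 0.1, IMP1 antibody over IgG, of each gene above 0 in both libraries, by gene list, with a bar at each list's median and the number of genes listed at 0 with IgG at the right. The immediate early genes in red lie between -2.90 and -0.76, left of 0, the MAP kinase phosphatases lie on both sides, and the dashed line marks the median of all genes above 0 in both, -0.77.

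The scale of the libraries bears on the direction of these results. Rescaling the IMP1 values to the median gene with at least 1 FPKM in both libraries is a log2 shift of 0.79, and to the same FPKM sum a shift of 1.88. DUSP1, ATF3, FOSL2 and JUND stayed lower in the IMP1 library under every rescaling, with log2 ratios of -1.10, -0.64, -0.51 and -0.14 at the largest shift, whereas JUN turned to 0.56 and IER3 to 1.12. At that shift 1 of the 10 genes was at least 2-fold lower and 5 at least 2-fold higher, and 83.1% of all genes past 2-fold were higher, against 57.2% as deposited. Ratios between genes of the same library do not change with scale, and IER3 exceeded DUSP1 43.4 times in the IMP1 library and 9.21 times with IgG.

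**Figure D5:**
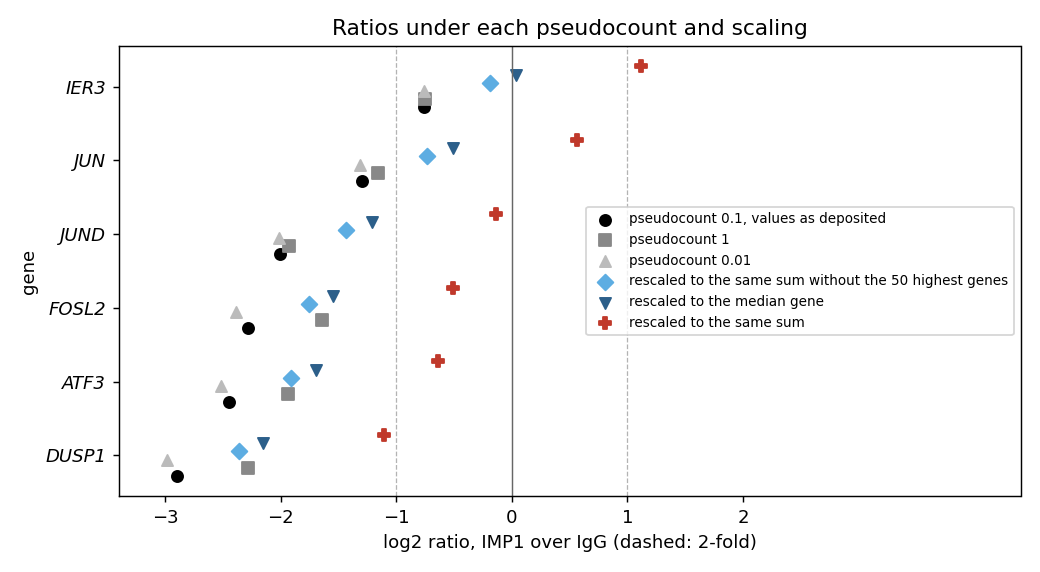
Log2 ratio, IMP1 antibody over IgG, of the 6 genes above 0 in both libraries under each pseudocount and each rescaling of the IMP1 values, with dashed lines at 2-fold. DUSP1 stays left of the lower 2-fold line throughout, and JUN and IER3 lie right of 0 after rescaling to the same sum, as does IER3, at 0.0355, after rescaling to the median gene.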

How the data were processed

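RNA from an IMP1 antibody and an IgG precipitate of T47D cells was measured by RNA-seq in 1 library each. The authors deposited FPKM values per gene, with coordinates of hg19 per the submitters' processing notes. Aligner, quantification software and annotation are not given in the sources used here, and the labels and the paper's methods differ on the incubation time. The deposited table writes 0 as 1e-05. This value, and 346 smaller values with the IMP1 antibody and 228 with IgG, were read as 0. The authors' fold changes, p-values and q-values, and their lists chosen by them, were not used. Locus starts were raised by 1 to count from 1.

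Ratios used a pseudocount of 0.1, and genes past 2-fold were counted over all 18781 genes. With 1 library per condition no test was possible. Read depth is unknown, so no counting interval is given. The counting was tested on simulated data in which every gene was above 0, so that test does not cover genes listed at 0. The 10 genes and the gene lists were chosen with earlier results of these data known. Genes named from the other lists are at most 4 a list, the 2 highest and those with the largest and smallest ratio where both values reach 1 FPKM, all other immediate early genes that reach 10 FPKM in a library, and the nearest neighbours. Any other gene was named after its values were seen. Alternatives were other pseudocounts, a filter on low values, 3 rescalings and a 4-fold threshold. Motifs in ACACCC or ATTTA were not searched, because transcript sequences were not used here. Python 3.11.15, numpy 2.4.6, pandas 2.3.3 and matplotlib 3.10.9 were used.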

Additional observations from a re-analysis of the deposited data

How the results depend on the processing

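No paired analysis was possible because each condition had 1 library and nothing was tested, and no replicate could be left out. The 5 genes at least 2-fold lower became 1 after rescaling to the same sum, and were 4 or 5 under each other alternative. The 4 at least 2-fold higher, which are the genes listed at 0 with IgG, became 2 with a pseudocount of 1 and 0 once both values had to reach 1 FPKM, a filter that removes them and FOSL2. The median log2 ratio of the 10 genes, -1.03, was -2.00 with that filter, -0.24 after rescaling to the median gene and 0.84 after rescaling to the same sum. IER3 turned to 0.0355 when rescaled by the median gene and to 1.12 at the same sum, and JUN to 0.56 at the same sum. Of the other immediate early genes, the 11 lower became 7 with the filter, 5 after rescaling to the median gene, 5 at the same sum without the 50 highest genes, 3 at the same sum and 5 at 4-fold. The 6 higher, all listed at 0 with IgG, became 0 with a pseudocount of 1 and 0 with the filter, 11 after rescaling to the median gene and 18 at the same sum. Of all 18781 genes, 5610 were lower and 7488 higher as deposited. With a pseudocount of 1 it was 4206 and 3276, and with the filter 3038 and 793 of 6909 genes. Rescaled to the median gene it was 3998 and 9265, and at the same sum 2433 and 11962. Without the 50 highest genes it was 4410 and 8704, and at 4-fold 3249 and 4901. Rescaling raises every IMP1 value, which sets the changes under rescaling. Values were held to have moved when they differed by over 1.5-fold. Single libraries of unknown depth leave low values, such as those of EGR1 and FOS, the least certain.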
